A study of Rattus norvegicus with 12 samples.

Results

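The genes studied here are 8 rat genes of MHC class II antigen presentation, chosen by name from the 37209 gene symbols of the count table. They are the invariant chain Cd74, the transactivator Ciita, the antigen-presenting chains RT1-Da, RT1-Db1, RT1-Ba and RT1-Bb, and the peptide-loading chains RT1-DMa and RT1-DMb. All 8 symbols were in the table, and all 8 passed the filter on low counts together with 17008 genes in all. RNA was sequenced from the brains of Sprague Dawley rats at postnatal day 21, in 4 groups of 3 libraries. In 1 group the middle cerebral artery was occluded (MCAO, a stroke that cuts the blood supply to much of a cerebral hemisphere), in another the pons, a part of the brainstem, was infarcted, and the other two, with the codes LN and PN, were shams. Sham LN is set against MCAO and sham PN against pontine infarction because the first letters of the codes match. For each stroke the labels mention 3 rats; which part of the brain was taken, and how long after surgery, they do not say. No genetic change or drug is named for any group. The p-values below measure the spread between these samples.

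MHC class II molecules are pairs of an alpha and a beta chain that carry peptides from endosomes to the cell surface, where CD4 T cells read them. In the rat, RT1-Da and RT1-Db1 encode the alpha and beta chains of the RT1-D molecule, the counterpart of human HLA-DR, and RT1-Ba and RT1-Bb those of RT1-B, the counterpart of HLA-DQ. The invariant chain made from Cd74 fills the groove of a new class II molecule and guides it to endosomes, where proteases trim it and the RT1-DM pair exchanges the last fragment for a peptide. CIITA does not bind DNA itself; it is recruited by a complex of RFX, CREB and NF-Y factors on the X and Y boxes of class II promoters. Interferon gamma, in part through IRF1, is the classic inducer of Ciita outside professional antigen-presenting cells. In the healthy brain parenchyma class II is scarce, and microglia, border macrophages and infiltrating myeloid cells are its usual carriers after injury.

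The promoters of the members are shown first, because they carry the DNA elements by which CIITA is known to act on several of these genes together. Sequences are from RefSeq, build GRCr8, and cover 250 bases before to 50 bases after the annotated start. Of the 8 members, 6 had a promoter in that table, all except Ciita and RT1-DMb. The motifs searched on both strands were GCAAC, the core letters of many X boxes, and ATTGG, the NF-Y letters of the Y box; the pair was counted where ATTGG followed GCAAC on the same strand after 20 to 35 bases. Capitals mark these letters, and each line runs 5′ to 3′ on the gene's strand.
RT1-Da, chr20:4515325-4515378 (+): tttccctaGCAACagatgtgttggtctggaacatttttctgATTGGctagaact
RT1-Db1, chr20:4560230-4560282 (-): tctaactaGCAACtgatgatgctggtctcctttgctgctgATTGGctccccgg
RT1-Ba, chr20:4576973-4577026 (+): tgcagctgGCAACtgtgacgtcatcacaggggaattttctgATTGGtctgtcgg
RT1-Bb, chr20:4604167-4604225 (-): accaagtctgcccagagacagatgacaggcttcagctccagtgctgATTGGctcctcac
RT1-DMa, chr20:4712387-4712445 (-): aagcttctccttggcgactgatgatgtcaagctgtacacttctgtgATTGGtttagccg
Cd74, chr18:56527128-56527181 (+): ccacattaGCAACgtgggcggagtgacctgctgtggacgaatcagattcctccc

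The spaced pair stood in 3 of the 6 member promoters. The gap between the motifs was 28 bases in RT1-Da, 27 in RT1-Db1 and 28 in RT1-Ba. Among all 33469 promoters in the table, 222 (0.663%) held such a pair, while GCAAC alone was in 35.1% and ATTGG alone in 37.5%. ATTGG was present in 6 of 6 member promoters. In Cd74 it was on the opposite strand, further from the start than the stretch shown. In RT1-Bb and RT1-DMa the letters GCAAC were not in the window. The other class II chains RT1-DOa, RT1-DOb and RT1-Db2 each held the pair as well, with gaps of 28, 25 and 26 bases. The pair therefore occurs in promoters of genes whose transcripts rose and of genes whose transcripts did not pass the test below. A match describes the letters and is no evidence of binding.

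**Figure D1:**
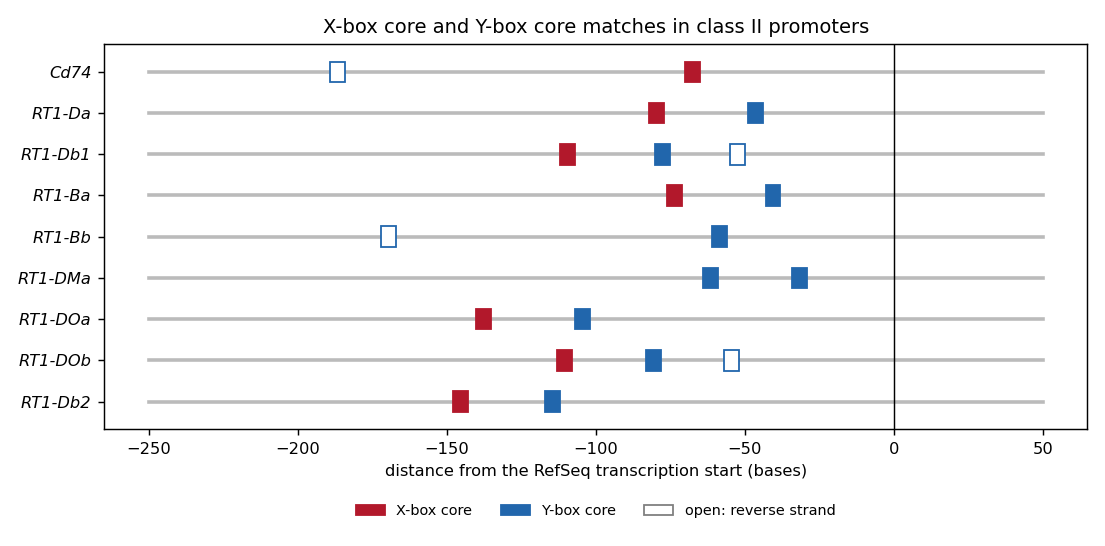
Positions of GCAAC (X-box core) and ATTGG (Y-box core) in the promoters of 6 members and of RT1-DOa, RT1-DOb and RT1-Db2, as distance in bases from the RefSeq start (horizontal axis); each row is a gene, and the legend marks motif and strand. The spaced pair is seen in RT1-Da, RT1-Db1, RT1-Ba and the 3 other class II chains.

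Libraries held 19805815 to 40400676 counts, so a single count is worth about 0.0263 CPM (counts scaled to a common library size) in the deepest sham LN library. Levels below are CPM; values of different genes are not compared, since no transcript lengths were used. Neuronal and astrocyte markers were abundant in all 12 libraries, with summed levels of 1624 to 4568 and 2144 to 8165 CPM. A pair of libraries stood apart. MCAO replicate 1 had a choroid plexus sum of 1118 CPM, with the plexus gene Ttr at 1019 CPM, against 3.74 to 21.9 CPM elsewhere. Pontine infarction replicate 3 had a cerebellar sum of 597 CPM against 14.1 to 89.4 CPM elsewhere. They are also the libraries with the highest summed class II level in their groups, and each count of members called below is given without them. Another MCAO library, whose column code carries a number that no sample title has, is called the unnumbered MCAO library.

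MCAO against sham LN addresses how class II transcripts stand in the brain after a stroke of the hemisphere. Class II transcripts rose broadly: 7 of the 8 members passed the test upward, and RT1-Db1 did not pass. Among all genes tested, 12.5% passed upward. The libraries of the 2 groups did not overlap for 8 of 8 members, against 20.4% of all genes in that direction. The members' median log2 change was 4.53, or 4.46 with RT1-Ba at its lower bound, and that of all genes was -0.00176. More cells of a type and more RNA per cell cannot be told apart in bulk tissue.

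Ciita, the switch of the pathway, was near the floor of detection in sham LN, at 0.158, 0.371 and 0.153 CPM. After MCAO it was at 5.39 and 0.444 CPM in replicates 1 and 2 and at 10.1 CPM in the unnumbered library. Replicate 2 thus lay only just above the highest sham, and the other two far above. Its log2 change was 4.53 ± 0.99 (SE; edgeR adjusted p = 0.0116).

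Cd74 was at 4.35, 4.0 and 4.09 CPM in the shams and at 160, 20.8 and 105 CPM in MCAO replicate 1, replicate 2 and the unnumbered library. Even the lowest MCAO library was 5.02-fold above the sham mean, and the highest was 38.5-fold above it. The group means were 95.1 ± 69.9 CPM (SD, n = 3) and 4.15 ± 0.179 CPM. The log2 change was 4.52 ± 0.71 (edgeR adjusted p = 0.00303).

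Of the antigen-presenting chains, RT1-Da had the most precise change. It stood at 0.738, 0.593 and 0.459 CPM in the shams and at 47.2, 5.92 and 20.6 CPM after MCAO, and the log2 change was 5.34 ± 0.82 (edgeR adjusted p = 0.00288). Its partner RT1-Db1 was at 0.422, 0.371 and 0.306 CPM in the shams and at 7.02, 0.839 and 3.72 CPM after MCAO. The groups did not overlap, but MCAO replicate 2 was only 2.29-fold above the sham mean, and the log2 change of 3.38 ± 1.19 did not pass (edgeR adjusted p = 0.0684). The ratio of RT1-Da to RT1-Db1 counts was 1.5 to 1.75 in sham LN and 5.52 to 7.06 after MCAO. RT1-Db1 has a close copy, RT1-Db2, with which reads may be shared; with the counts of both summed the adjusted p was 0.0835.

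The RT1-B chains went from none or almost none to a low level. RT1-Ba had 0 counts in all sham LN libraries and 1.20, 0.345 and 0.532 CPM after MCAO. Taking 3 counts over the sham group as a floor, it was higher by at least 21.2-fold (edgeR adjusted p = 0.0249). Without MCAO replicate 1 that bound was 13.4-fold, and the call was lost (edgeR adjusted p = 0.0741). RT1-Bb had a single count over the sham LN libraries, and 3.56, 0.395 and 2.13 CPM after MCAO. With 126 counts over the MCAO libraries it was 186-fold higher, with a 95% interval for counting error alone of 32.8 to 7402, and it passed the test (edgeR adjusted p = 0.00542).

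The peptide exchange factor rose in both chains. RT1-DMa was at 0.105, 0.148 and 0.0765 CPM in the shams and at 2.26, 0.987 and 1.06 CPM after MCAO (log2 change 3.65 ± 0.81, edgeR adjusted p = 0.0125). RT1-DMb was at 0.316, 0 and 0.344 CPM in the shams and at 2.02, 0.987 and 1.64 CPM after MCAO (log2 change 2.77 ± 0.78, edgeR adjusted p = 0.0315). Here MCAO replicate 2 was closer to the other MCAO libraries than it was for Cd74 or Ciita. It was 8.97-fold above the sham mean for RT1-DMa and 1.95-fold for Ciita.

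Cd74, RT1-Da and RT1-Bb stayed past the threshold in every alternative that gave them a value. Members called numbered 3 without sham LN replicate 1 or 3 and 6 without sham LN replicate 2. They numbered 4 without MCAO replicate 1, 8 without MCAO replicate 2 and 5 without the unnumbered library. All genes called in those fits numbered 1136, 1257, 1544, 1426, 6170 and 1517 in that order, against 3163 with all libraries. Without both libraries that stand apart 5 members were called, among 2065 genes.

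**Figure D2:**
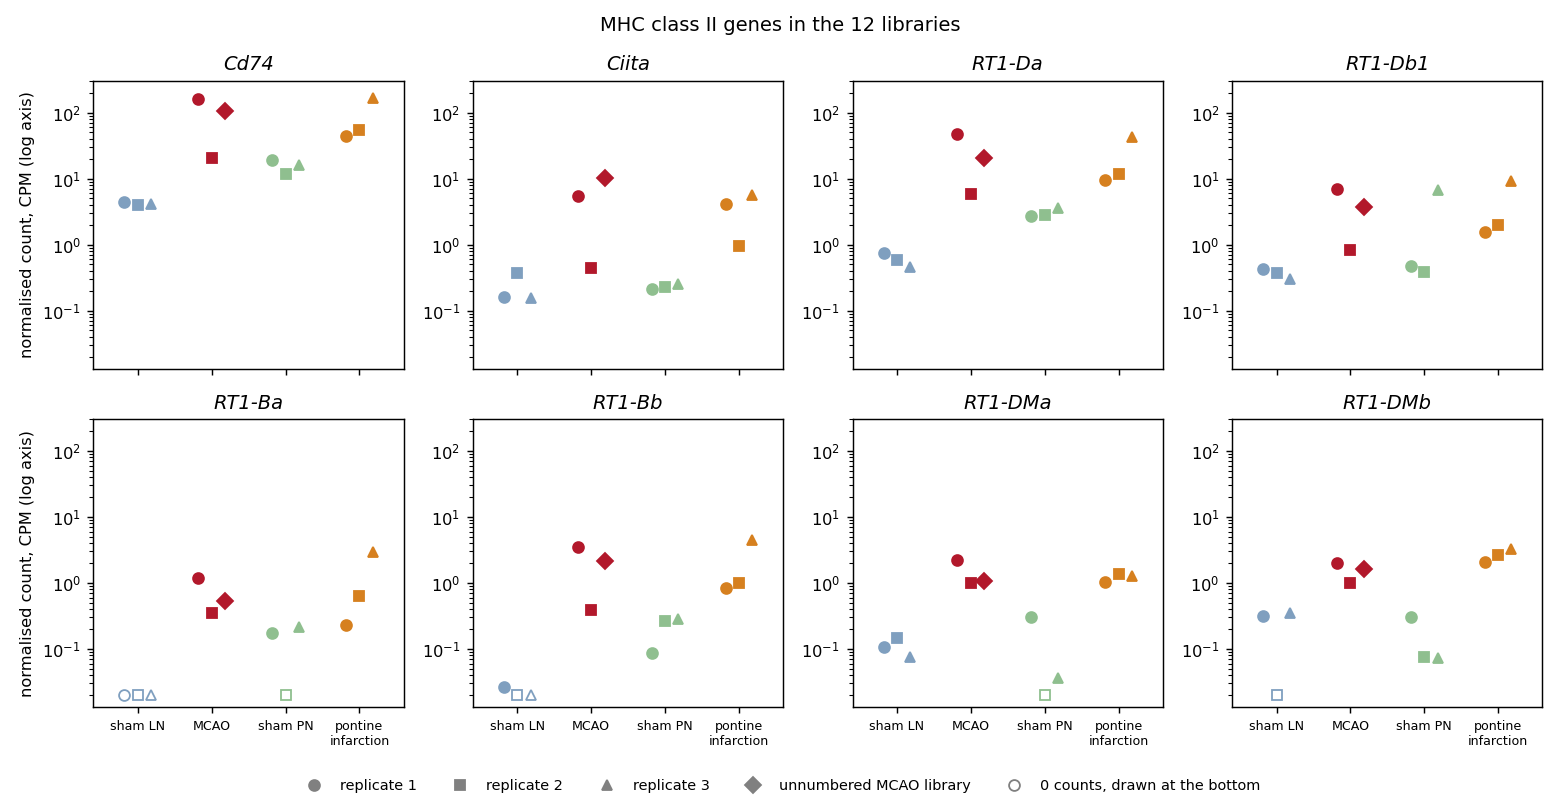
Normalised counts (CPM, log axis) of the 8 members in the 12 libraries, by group; each point is a library, its shape the replicate, and open points at the bottom are libraries with 0 counts. MCAO libraries lie above sham LN libraries for all 8 members, and MCAO replicate 2 is the lowest of its group each time.

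Pontine infarction was compared with sham PN to ask the same of a brainstem stroke. Here 4 of the 8 members rose: Ciita, RT1-Da and both RT1-DM chains. Among all genes 3.21% passed upward. Groups did not overlap for 7 of 8 members, all except RT1-Db1, against 13.3% of all genes. The median log2 change was 3.25, against -0.08 for all genes.

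Ciita was at 0.215, 0.227 and 0.252 CPM in sham PN replicates 1 to 3, and at 4.19, 0.959 and 5.57 CPM in pontine infarction replicates 1 to 3. All stroke libraries were above all shams, with replicate 2 the lowest. The log2 change was 3.91 ± 0.98 (edgeR adjusted p = 0.0492).

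Among the stroke libraries the RT1-DM chains were the most even, while their SEs were no smaller than those of Cd74 and RT1-Da. RT1-DMb rose from 0.301, 0.0756 and 0.0719 CPM in sham PN to 2.05, 2.69 and 3.29 CPM after pontine infarction (log2 change 4.16 ± 0.83, edgeR adjusted p = 0.0216). RT1-DMa rose from 0.301, 0 and 0.0359 CPM to 1.02, 1.36 and 1.27 CPM (log2 change 3.46 ± 0.83, edgeR adjusted p = 0.0408). For both genes the 3 stroke libraries lay within a 2-fold range of one another.

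The chains and Cd74 were much more uneven. RT1-Da was at 2.67, 2.76 and 3.59 CPM in sham PN and at 9.40, 11.6 and 42.5 CPM after pontine infarction; its log2 change of 2.81 ± 0.71 passed narrowly (edgeR adjusted p = 0.0499956). Cd74 was at 19.3, 11.8 and 15.8 CPM in the shams and at 43.5, 54.1 and 165 CPM after the stroke. All stroke libraries were above the shams, by 2.78-fold in replicate 1 to 10.6-fold in replicate 3, and the log2 change of 2.49 ± 0.65 did not pass (edgeR adjusted p = 0.0542). RT1-Bb was at 0.0860, 0.264 and 0.287 CPM in the shams and 0.837, 0.982 and 4.45 CPM after the stroke (log2 change 3.25 ± 0.92, edgeR adjusted p = 0.0708). RT1-Ba was at 0.172, 0 and 0.216 CPM and 0.233, 0.632 and 2.95 CPM (log2 change 3.26 ± 1.13, edgeR adjusted p = 0.137). In each of these genes replicate 3, the library with cerebellar transcripts, was several times the other two.

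RT1-Db1 was the exception. It was at 0.473, 0.378 and 6.72 CPM in sham PN replicates 1 to 3 and at 1.53, 2.01 and 9.08 CPM after pontine infarction. Sham PN replicate 3 alone held 187 counts against 11 and 10 in the other shams, and it also held 33 counts of the copy RT1-Db2, which had 0 to 5 counts in every other library. In that library the ratio of RT1-Da to RT1-Db1 counts was 0.535, against 5.64 and 7.30 in the other sham PN libraries and 4.68 to 6.12 after the stroke. The log2 change was 0.73 ± 1.04 (edgeR adjusted p = 0.719), -0.51 without pontine infarction replicate 3, and 3.29 without sham PN replicate 3 (edgeR adjusted p = 0.186).

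Calls after pontine infarction were sensitive to single libraries, for all genes as well as for the members. No member was called without sham PN replicate 2, sham PN replicate 3 or pontine infarction replicate 3. Those fits called 52, 6 and 310 genes in all, against 694 with all libraries. At an unadjusted edgeR p under 0.05, 7, 8 and 6 members passed in them. Called members numbered 1 without sham LN replicate 1, 2 or 3, among 441, 479 and 455 genes. They numbered 2 without sham PN replicate 1, pontine infarction replicate 1 or the unnumbered MCAO library, among 182, 431 and 602 genes. Without MCAO replicate 1 they numbered 5 among 1003 genes, and without MCAO replicate 2 they numbered 6 among 1416. Libraries outside the comparison act through the shared estimate of the spread. Without both libraries that stand apart 2 members were called, among 637 genes.

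**Figure D3:**
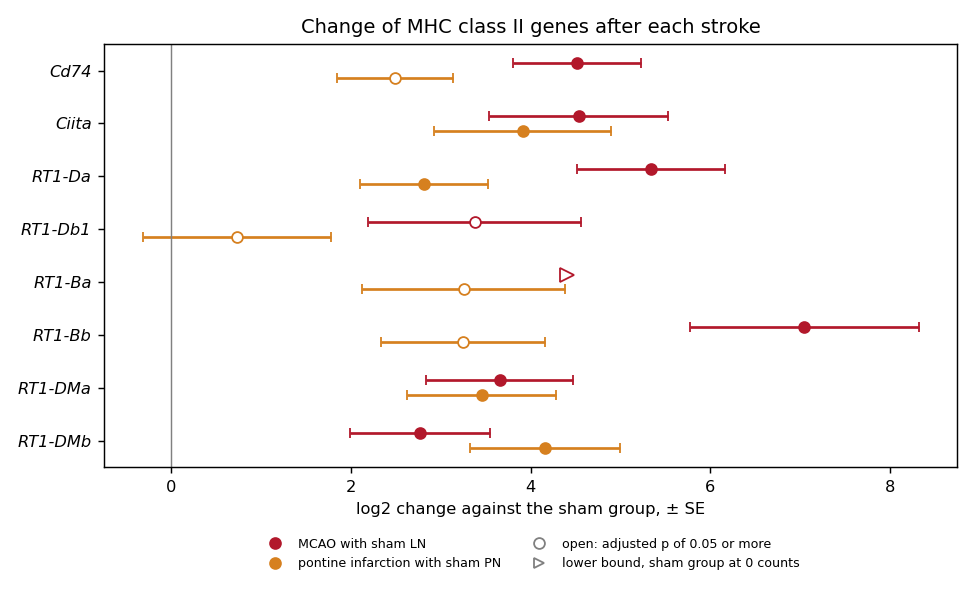
Log2 change of each member against its sham group (horizontal axis, ± SE) after MCAO and after pontine infarction; filled points have an edgeR adjusted p under 0.05, and the triangle is the lower bound of RT1-Ba, whose sham LN libraries were at 0. RT1-Bb after MCAO rests on 1 sham count. After MCAO 7 members passed and after pontine infarction 4.

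The 2 responses were then compared with each other in an interaction contrast. No member differed past the threshold, nor did any of the 17008 genes by edgeR (0%); at an unadjusted p under 0.05 there were 1826 genes, 3 of them members, and DESeq2 called 238 genes, none of them members. Without both libraries that stand apart no member passed either. The difference in log2 change, MCAO minus pontine infarction, was 2.03 ± 0.89 for Cd74, with an interval of 2 SE from 0.25 to 3.80 (edgeR adjusted p = 0.448). For RT1-Da it was 2.52 ± 1.0, from 0.51 to 4.54 (edgeR adjusted p = 0.413). For Ciita it was 0.62 ± 1.35, from -2.07 to 3.31 (edgeR adjusted p = 0.908). For RT1-DMb it was -1.39 ± 1.11, from -3.62 to 0.84 (edgeR adjusted p = 0.693). These intervals are wide, and a p above the threshold does not show equal responses.

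Since each response is measured from its own sham group, the shams were also compared. Cd74 was at 4.0 to 4.35 CPM in sham LN and 11.8 to 19.3 CPM in sham PN. RT1-Da was at 0.459 to 0.738 CPM and 2.67 to 3.59 CPM. RT1-Bb had 1 count over sham LN and 17 over sham PN. For these 3 members every sham LN library lay below every sham PN library, as for 29.2% of all genes. None of the 8 members passed (edgeR adjusted p = 0.0574 for Cd74, 0.0520 for RT1-Da and 0.0758 for RT1-Bb), while 21.3% of all genes did in either direction. The fit on the 6 shams alone called 3 members among 6365 genes, and DESeq2 called 5 among 4512. Leaving out MCAO replicate 2 or pontine infarction replicate 3 called 3 members, among 4294 and 4162 genes. Leaving out both libraries that stand apart called 3 among 4660. The fit reported called 3625 genes, so the genes called rose across the series in these settings. Ciita did not follow this order: its means were 0.227 ± 0.124 CPM (SD, n = 3) in sham LN and 0.231 ± 0.0187 in sham PN. The pan-myeloid genes also had like sums in the sham groups, 273 to 325 CPM in LN and 283 to 336 CPM in PN. Resting microglia genes overlapped too, at 261 to 307 and 275 to 294 CPM. Border macrophage genes did not, at 26 to 32 CPM in LN and 37 to 43 CPM in PN. Nor did dendritic cell genes, at 19 to 26 and 34 to 36 CPM. In that sum Flt3 had the widest gap, at 5.27 to 8.19 CPM in LN and 17.4 to 20.9 CPM in PN. Zbtb46 overlapped, at 10.1 to 15.9 and 9.33 to 11.3 CPM. Of 8 tested dendritic genes, 4 were lower in every sham LN library (29.2% of all genes) and 0 were higher. The low sums of B cell genes and of monocyte and neutrophil genes were also higher in every sham PN library, but few of their genes were so singly. Of 4 tested B cell genes only 1, Pax5, was lower in every sham LN library, against 29.2% of all genes. Pax5 had 0 counts in sham LN and was at 1.46, 4.16 and 3.99 CPM in sham PN. Of 7 tested monocyte and neutrophil genes, 0 were without overlap. The part of these cells in the sham difference was not tested. After stroke the levels of Cd74 were close: 95.1 ± 69.9 CPM after MCAO and 87.7 ± 67.5 CPM after pontine infarction.

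In order of mean level, Cd74 was thus lowest in sham LN, then sham PN, and higher in both stroke groups. The order of the 2 strokes rests on single libraries: without MCAO replicate 1 the MCAO mean was 62.8 CPM, below that of pontine infarction, which was 48.8 CPM without its replicate 3. The 2 stroke groups overlapped, and no stroke library was as low as a sham of either group. The same held for RT1-Da, whose stroke means were 24.6 ± 20.9 and 21.2 ± 18.5 CPM, or 13.2 and 10.5 CPM without those libraries.

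Of the 6 further genes listed for the rat class II region, 5 were in the table and only RT1-DOb had enough counts to be tested. RT1-DOb, which encodes a chain of the RT1-DO molecule that restrains RT1-DM, was at 0.226 ± 0.0985 CPM after MCAO and 0.197 ± 0.204 in sham LN, and at 0.532 ± 0.212 CPM after pontine infarction and 0.343 ± 0.120 in sham PN. Neither change passed (edgeR adjusted p = 0.895 and 0.660). Its partner RT1-DOa had 10 counts over MCAO and 2 over sham LN, and 24 and 3 in the other pair of groups, too few for the test. RT1-DOb, a gene of B cells and thymus by textbook knowledge, carries the same spaced promoter pair as RT1-Da.

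The RFX, NF-Y and CREB factors that hold CIITA on the promoter, and its cofactors, did not pass the test in either stroke. Of 11 class II transcription factors and cofactors, 1 rose after MCAO (12.5% of all genes) and none after pontine infarction (3.21%). These counts are near the shares of all genes. The medians were 0.25 and -0.05. Rfx5, the DNA-binding RFX subunit, was at 21.8 ± 3.88 CPM after MCAO against 28.4 ± 2.35 in sham LN (edgeR adjusted p = 0.156), and at 40.7 ± 8.66 against 53.5 ± 2.37 in the other pair (edgeR adjusted p = 0.229). Rfxank and Rfxap, its partners, had adjusted p-values of 0.187 and 0.204 after MCAO by edgeR, and 0.825 and 0.442 after pontine infarction. The gene that rose was Nlrc5, a relative of Ciita that drives class I rather than class II genes. It went from 1.14 ± 0.660 to 19.8 ± 15 CPM after MCAO (log2 change 4.09 ± 0.75, edgeR adjusted p = 0.00577) and stood at 11.1 ± 4.94 against 2.48 ± 0.352 CPM in the other pair (log2 change 2.15 ± 0.69, edgeR adjusted p = 0.104).

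Of the interferon gamma axis, 13 of 16 tested genes rose after MCAO and 2 of 16 after pontine infarction. This list holds the ligand, receptor, kinases and transcription factors, and also interferon targets and feedback genes, which are not inputs to Ciita. The shares of all genes were 12.5% and 3.21%, and the medians of the axis were 2.46 and 1.59. Ifng itself was barely detected. It had 14 counts over the MCAO libraries, at 0.0962 and 0 CPM in replicates 1 and 2 and 0.580 CPM in the unnumbered library. It had 0 counts over sham LN and over pontine infarction and 1 over sham PN, and was not tested.

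Irf1, the factor that opens the inducible Ciita promoter, rose from 5.0 ± 1.41 CPM to 94.5, 11.8 and 92.0 CPM after MCAO (log2 change 3.72 ± 0.79, edgeR adjusted p = 0.0103). After pontine infarction it was at 68.7, 10.4 and 21.2 CPM against 5.66 ± 0.916, and did not pass (edgeR adjusted p = 0.0813). Gbp2, a guanylate-binding protein induced by interferon, rose to 89.6 ± 68.6 from 3.37 ± 0.233 CPM after MCAO (log2 change 4.73 ± 0.98, edgeR adjusted p = 0.00936). Socs3, a feedback inhibitor of JAK signalling that many cytokines induce, rose in both strokes (log2 change 7.86 ± 0.99 and 5.35 ± 0.90, edgeR adjusted p = 0.00154 and 0.0119). Irf8, a factor of the myeloid lineage, was the other gene of this axis to rise in both, to 42.2 ± 14 from 13.8 ± 3.10 CPM after MCAO and to 83.1 ± 61.3 from 8.37 ± 1.18 CPM after pontine infarction (edgeR adjusted p = 0.0262 and 0.00652).

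Library by library, MCAO replicate 2 was the lowest of its group for 8 of 8 members and for 16 of 16 interferon axis genes, against 37.1% of all genes tested. Replicate 1 was the highest for 7 members and 10 interferon axis genes, and the unnumbered library for 1 member and 6 interferon axis genes. Pontine infarction replicate 1 was the lowest of its group for 7 of 8 members (32.6% of all genes) but the highest for 11 of 16 interferon axis genes (29.2% of all genes). Replicate 3 was the highest for 7 members and for 5 interferon axis genes (38.7% of all genes), and replicate 2 was the lowest for 12 interferon axis genes. Gbp2 is an example, with 139, 12.9 and 25.2 CPM in pontine infarction replicates 1 to 3, where Cd74 had 43.5, 54.1 and 165 CPM. The ratio of Cd74 to Irf1 counts was accordingly 0.633, 5.22 and 7.81 in those libraries, against 1.14 to 1.77 after MCAO. Ciita took a middle course, with 4.19, 0.959 and 5.57 CPM. Irf8, at 52.2, 43.5 and 154 CPM, had its highest value in replicate 3, as Cd74 did.

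**Figure D4:**
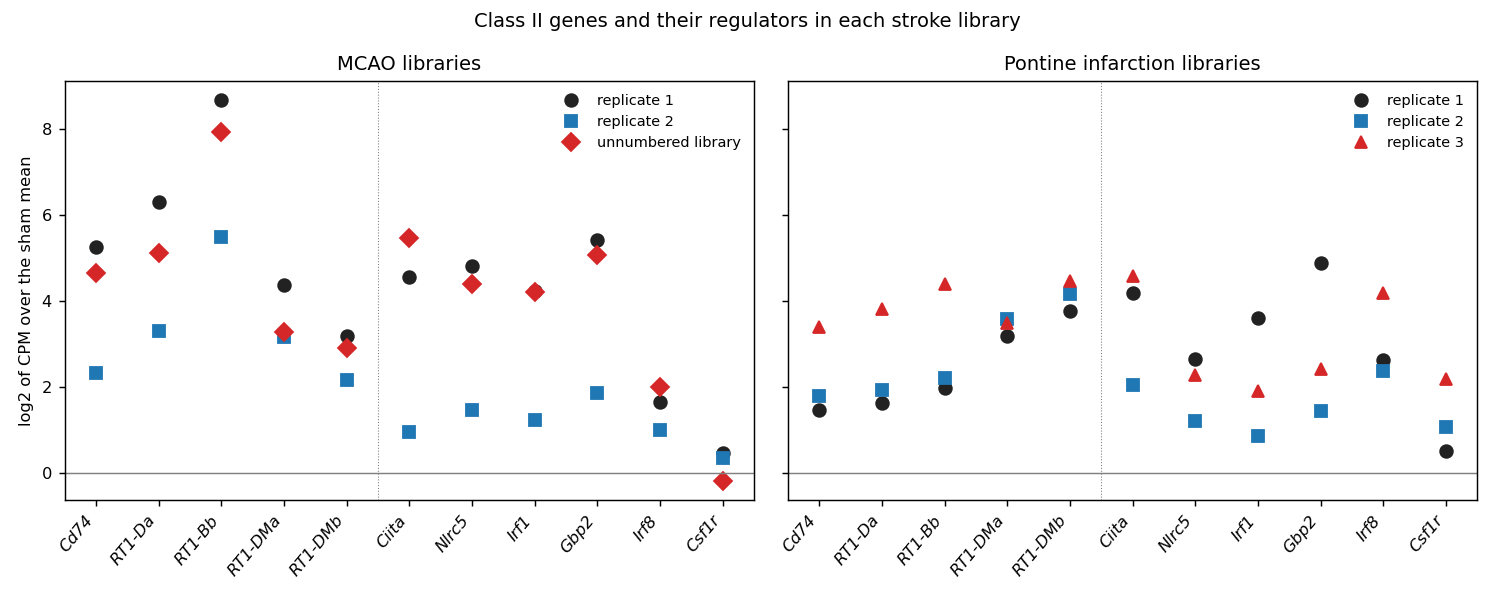
Log2 of the CPM of each stroke library over its sham mean (vertical axis) for 5 class II genes, Ciita, Nlrc5, Irf1, Gbp2, Irf8 and the myeloid receptor Csf1r, after MCAO (left) and pontine infarction (right); shapes mark the libraries. After MCAO replicate 2 is low throughout, except for Csf1r, while pontine infarction replicate 1 is highest for Irf1, Gbp2 and Nlrc5 and lowest for Cd74 and RT1-Da.

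Genes of endosomal processing, which cut antigens and the invariant chain, rose in both strokes, with medians of 1.41 and 1.51. After MCAO 9 of 14 passed upward (12.5% of all genes) and after pontine infarction 7 of 14 (3.21%). Ctss, whose protease makes the last cuts in the invariant chain, was not among them. It stood at 127 ± 62.4 CPM after MCAO against 115 ± 7.81 (edgeR adjusted p = 0.767; the log2 change of 0.14 became -0.42 without MCAO replicate 1) and at 198 ± 66.9 against 106 ± 5.08 CPM after pontine infarction (edgeR adjusted p = 0.114). Ifi30, a thiol reductase that opens disulphide bonds of antigens, rose in both, by 2.45 ± 0.58 and 2.48 ± 0.57 on the log2 scale (edgeR adjusted p = 0.0160 and 0.0369). Ctsc, which activates serine proteases, rose by 3.69 ± 0.58 and 2.75 ± 0.56 (edgeR adjusted p = 0.00301 and 0.0222), and Ctsz, a cathepsin of phagocytes, by 3.02 ± 0.49 and 3.35 ± 0.50 (edgeR adjusted p = 0.00348 and 0.00853). Napsa, an aspartic protease, rose from 0.0845 ± 0.0763 to 33.1 ± 31.7 CPM after MCAO and from 0.181 ± 0.0928 to 9.70 ± 9.47 CPM after pontine infarction (edgeR adjusted p = 0.00244 and 0.0190). Cst7, an inhibitor of cathepsins, had 37.0, 2.17 and 16.4 CPM after MCAO and at most 0.0765 CPM in a sham LN library (edgeR adjusted p = 0.00368).

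Of 8 genes of class II trafficking and turnover, 4 rose after MCAO (12.5% of all genes) and 1 after pontine infarction (3.21%). The medians were 0.73 and 0.41. Cd63, a tetraspanin of the endosomes where class II is loaded, was the gene that rose in both (log2 change 2.61 ± 0.34 and 1.62 ± 0.33, edgeR adjusted p = 0.00179 and 0.0230). Cd82 and Cd9, tetraspanins that associate with class II, rose after MCAO and did not pass after pontine infarction (edgeR adjusted p = 0.815 and 0.323), and the difference between strokes did not pass for either (edgeR adjusted p = 0.450 and 0.714). After MCAO their calls held in 11 and 10 of 21 alternatives, with edgeR adjusted p up to 0.361 and 0.614 in the others. Il10, a cytokine that lowers surface class II in myeloid cells, had 0 counts in all 6 shams. It was at 15.6, 0.938 and 1.93 CPM after MCAO, higher by at least 188-fold over the same floor (edgeR adjusted p = 0.0320). Of its 383 MCAO counts 324 were in MCAO replicate 1, without which the bound was 43.8-fold and the call was lost (edgeR adjusted p = 0.0829). The call held in 12 of 20 alternatives. Il10 was at 0.651, 0 and 0 CPM after pontine infarction.

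Cd74 is also the surface receptor of the cytokine MIF, with Cd44, Cxcr2 and Cxcr4 as co-receptors. In this list of 6 genes, 4 rose after MCAO (12.5% of all genes) and 2 after pontine infarction (3.21%). The medians were 2.79 and 1.28. Cd44 rose in both, to 360 ± 209 from 11.0 ± 2.37 CPM after MCAO and to 102 ± 50.7 from 17.0 ± 1.63 CPM after pontine infarction (edgeR adjusted p = 0.000916 and 0.0194). Mif rose after MCAO, from 1.33 ± 0.167 to 5.06 ± 1.85 CPM (log2 change 1.92 ± 0.51, edgeR adjusted p = 0.0254). Cxcr4 rose after MCAO (log2 change 3.66 ± 0.62, edgeR adjusted p = 0.00421) and had an adjusted p of 0.0629 by edgeR after pontine infarction. Cxcr2, which neutrophils carry, was at 40.9, 6.22 and 36.9 CPM after MCAO and 13.7, 0.655 and 0.411 CPM after pontine infarction, with at most 1 count in any sham library (edgeR adjusted p = 0.00452 and 0.0387).

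T cells need co-stimulation beside class II. Of 9 tested ligands, 5 rose after MCAO (12.5% of all genes) and 3 after pontine infarction (3.21%). The medians were 2.43 and 1.56. Cd80 rose in both: it was at 2.65, 1.43 and 2.66 CPM after MCAO against 0.144 ± 0.0736, and at 1.35, 0.468 and 0.673 CPM after pontine infarction against 0 counts in sham PN (edgeR adjusted p = 0.00454 and 0.00858). Cd86, its relative, rose after pontine infarction, from 0.916 ± 0.174 to 8.13 ± 5.53 CPM (log2 change 3.14 ± 0.53, edgeR adjusted p = 0.0133), and was at 2.83 ± 1.59 against 0.974 ± 0.167 CPM after MCAO (edgeR adjusted p = 0.0563). Cd40 rose in both (log2 change 2.99 ± 0.56 and 2.54 ± 0.55, edgeR adjusted p = 0.00635 and 0.0270). Cd274, which encodes the inhibitory ligand PD-L1, rose after MCAO to 89.8 ± 65.0 from 3.56 ± 0.373 CPM (edgeR adjusted p = 0.00157) and was at 21.1 ± 15.5 against 9.56 ± 1.02 CPM after pontine infarction (edgeR adjusted p = 0.229). The difference between strokes did not pass for it (3.52 ± 0.75, edgeR adjusted p = 0.221), nor for Cd86 (-1.60 ± 0.72, edgeR adjusted p = 0.455).

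The genes of the T cells that read class II had no common direction. Of 17 T cell genes, 11 could be tested. After MCAO 3 of them (Cd2, Icos and Cd8a) rose and 1 fell, where 12.5% of all genes passed upward and 6.07% downward. After pontine infarction 1 rose, against 3.21% of all genes. The medians were 0.52 and 0.71. Cd4, the class II co-receptor, which rat microglia and macrophages also carry, fell after MCAO from 19.9 ± 2.93 to 8.04 ± 2.36 CPM (log2 change -1.31 ± 0.32, edgeR adjusted p = 0.0183). It was at 11.0, 21.4 and 29.6 CPM after pontine infarction against 12.6 ± 1.53 in sham PN (edgeR adjusted p = 0.217). Cd3e, part of the T cell receptor complex, was at 0.715 ± 0.371 CPM after MCAO and 0.999 ± 0.858 in sham LN (edgeR adjusted p = 0.675), and at 0.320 ± 0.237 against 0.0389 ± 0.00366 CPM in the other pair (edgeR adjusted p = 0.162). Cd8a, the class I co-receptor, which rat macrophages can also express, rose in both. It was at 3.27, 1.33 and 2.56 CPM after MCAO and 13.2, 2.90 and 73.2 CPM after pontine infarction, with 2 counts over each sham group (edgeR adjusted p = 0.0126 and 0.00759). The part of T cells in these levels was not tested.

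Class II was next set beside the genes of the cells that usually carry it. The 12 pan-myeloid genes all rose after pontine infarction (3.21% of all genes), and 6 of them after MCAO (12.5%). Their summed level was 537 to 1364 CPM after MCAO and 843 to 2332 CPM after pontine infarction. The class II sum was mostly Cd74, for instance 160 of 228 CPM in MCAO replicate 1 and 15.8 of 26.9 CPM in sham PN replicate 3. The ratios below therefore largely follow Cd74, and Ciita and the RT1-DM chains weigh little in them. Summed class II divided by summed pan-myeloid CPM was 0.0175 to 0.0199 in sham LN and 0.167, 0.0572 and 0.196 in MCAO replicate 1, replicate 2 and the unnumbered library. All MCAO libraries were above all sham LN libraries, with a difference of 2.72 in mean log2 ratio. In sham PN the ratio was 0.0482 to 0.0830 and after pontine infarction 0.0634 to 0.101; these groups overlapped, with a difference of 0.27.

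The choice of the myeloid gene matters. Against Csf1r, a receptor of resting and activated myeloid cells, the ratio was 0.0369 to 0.0469 in sham LN and 0.181 to 1.24 after MCAO, and 0.117 to 0.216 in sham PN and 0.277 to 0.401 after pontine infarction, with no overlap in either pair. Against Itgam and Ptprc, which infiltrating leukocytes also carry at high levels, MCAO spanned 0.403 to 0.803 and sham LN 0.527 to 0.626. After pontine infarction that ratio was 0.434, 0.974 and 1.64, against 1.51 to 2.56 in sham PN, so its mean was lower and the log2 difference was -1.14. Csf1r itself was at 158 ± 35 against 134 ± 16.7 CPM after MCAO (edgeR adjusted p = 0.649), and rose to 346 ± 212 from 128 ± 17.0 CPM after pontine infarction (edgeR adjusted p = 0.0425). How much of each class II change comes with more myeloid cells was not tested.

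**Figure D5:**
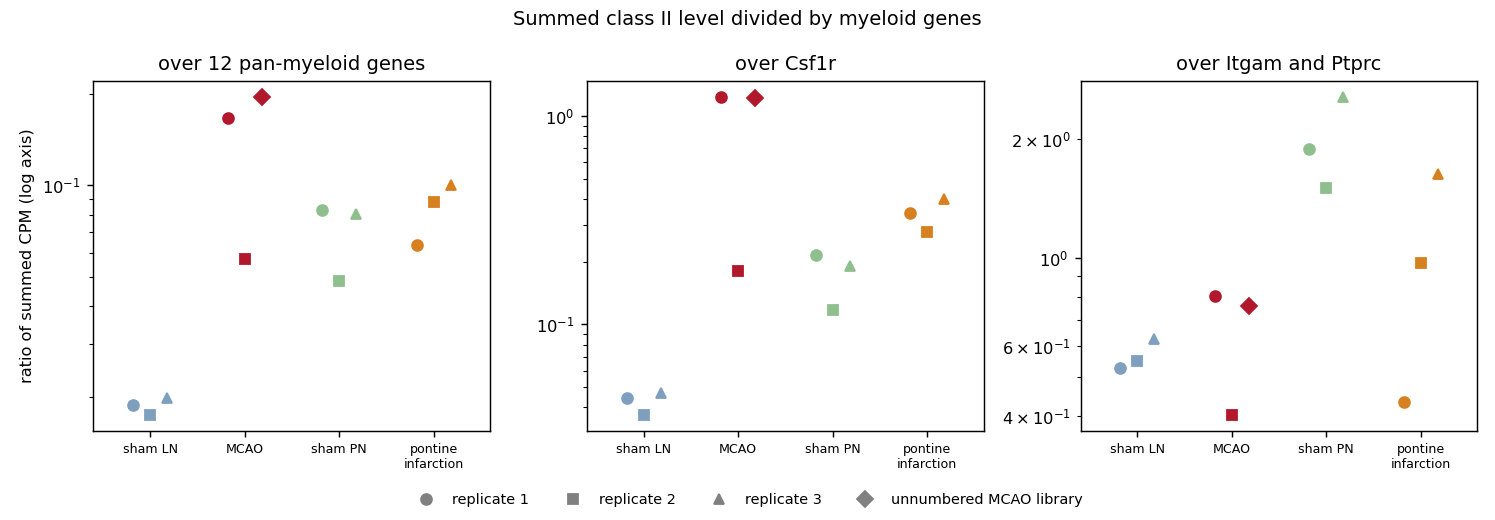
Summed CPM of the 8 members divided by that of 12 pan-myeloid genes, of Csf1r, and of Itgam with Ptprc (log axes), by group; each point is a library. After MCAO the ratio is above sham LN in the first and second panels and overlaps it in the third, and after pontine infarction it is above sham PN only in the second. The class II sum is mostly Cd74.

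Genes of other immune cells, whether or not these carry class II, were represented unevenly. Monocyte and neutrophil genes summed to 933, 78.3 and 556 CPM after MCAO and to 447, 48.7 and 116 CPM after pontine infarction, against 4.74 to 7.48 CPM in the shams. In MCAO this order matched that of class II, and in pontine infarction replicate 1 was highest for these genes and lowest for class II. Dendritic cell genes summed to 36.5 to 51.5 CPM after MCAO, 46.2 to 76.8 after pontine infarction and 18.8 to 35.8 in the shams. Of 8 tested dendritic genes, 4 rose after MCAO (Ccr7, Batf3, Clec9a and Itgax) and 1 after pontine infarction (Itgax). The shares of all genes were 12.5% and 3.21%. Itgax, an integrin that activated microglia share, was at 16.9 ± 5.43 and 16.1 ± 4.77 CPM against at most 0.227 in a sham library. B cell genes summed to 1.45 to 10.1 CPM over all libraries, and Cd79a was listed at 0 in all 12. The dendritic gene Cd209a and the microglial gene Gpr34 were also listed at 0 in all libraries, where a failed count cannot be told apart from absence. Of 9 tested genes of resting microglia, Siglech rose after MCAO, Tmem119 fell and 7 did not pass. None of the 9 passed after pontine infarction. Siglech had 1, 9 and 43 counts in MCAO replicate 1, replicate 2 and the unnumbered library, and 0 in every sham LN library. The part of any of these cells in the class II changes was not tested.

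Across all 12 libraries the members followed one another with differing closeness. Pearson's r of log2 CPM with the mean of the standardised members was 0.982 for Cd74, 0.977 for RT1-Da, 0.973 for RT1-Bb, 0.955 for RT1-Ba and 0.906 for Ciita, and it was 0.880, 0.872 and 0.846 for RT1-DMa, RT1-DMb and RT1-Db1. The mean contains each member, so these values describe the spread only. Outside the members, the 10 of 13234 candidate genes with the highest r were Fes, Fxyd5, Vim, Ifitm1, S100a4, Capg, Plbd1, Plin3, Ptbp1 and Cd63, with r of 0.981 to 0.985. The libraries share tissue, stroke and depth, so r is a description here. Vim, an intermediate filament of reactive astrocytes and myeloid cells, came closest to Cd74 in size, with a root mean square difference of 0.50 in centred log2 values. It was at 1181, 256 and 601 CPM after MCAO and 565, 480 and 1298 CPM after pontine infarction. Capg, an actin-capping protein of macrophages, had a difference of 0.53, and Ptbp1, a splicing regulator, the widest at 1.28.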

How the data were processed

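RNA-seq of rat brain was deposited by the authors as unscaled counts per gene symbol for 12 libraries. Per the submitters' processing notes, HISAT2 (no version) and Rnor_6.0 were used; how reads were counted, on which annotation and with which strand setting is not given in the sources used here, which leaves overlapping genes uncertain. Of 37209 symbols, 20212 are current RefSeq names and 2844 synonyms (GRCr8, used for names and promoters). The members and gene lists were chosen with earlier results of these data known.

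In R 4.3.3, edgeR 4.0.16 with TMM scaling and filterByExpr (minimum count 10, minimum total 15) kept 17008 genes (45.7%). A quasi-likelihood model with 4 groups was fitted to all 12 libraries. Adjusted p is Benjamini-Hochberg over all genes tested, threshold 0.05, two-sided. SE was taken as the size of the log2 change divided by the root of its F statistic. CPM uses TMM-scaled library sizes. Fold intervals are 95% and cover counting error only. Alternatives used DESeq2 1.42.0, limma 3.58.1, other filters, scaling and samples. The pipeline was tested on simulated data. Named genes are the members, 16 fixed genes, up to 4 genes past the threshold per list and stroke with the largest change, and the 10 genes most alike (at least 5 CPM in 1 library). Other genes named as cell markers come from the marker lists. Some genes are not reported here.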

Additional observations from a re-analysis of the deposited data

How the results depend on the processing

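Members kept their direction after MCAO in all alternatives; after pontine infarction RT1-Db1 turned to -0.51 without pontine infarction replicate 3 (-0.51 to 3.29 over single libraries) and to -0.41 without that library and MCAO replicate 1, a setting chosen after seeing the data, as were the means and bounds given without either library. The cause was not tested. Of 166 values of the members after MCAO 21 lost the call, and 36 of 167 after pontine infarction; for the other named genes it was 73 of 748 and 61 of 746. With 3 libraries a group and low counts, only large changes can pass.

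Genes called after MCAO (3163) were 1354 on the compared libraries alone, 1389 with the replicate block, 2065 without both libraries that stand apart, and 1136 to 6170 without single libraries, the unnumbered MCAO library giving 1517. After pontine infarction (694) they were 1738 by DESeq2, 315 by limma voom, 1512 with all 6 shams as control and 6 to 1416 without single libraries. For the difference (0) they were 1 with no filter, 238 by DESeq2 and 0 to 970 without single libraries. Between the shams (3625) they were 6365 on the compared libraries alone and 2334 to 4294 without single libraries. Members called after MCAO numbered 3 to 8 without single libraries, and 5 with the replicate block. After pontine infarction they numbered 2 by limma voom, 1 with the replicate block, 7 with all 6 shams, 2 without both libraries and 0 to 6 without single libraries. Between the shams they numbered 1 with no filter, 5 by DESeq2, 3 on the compared libraries alone, 3 without both libraries and 0 to 3 without single libraries.

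The log2 difference of the ratio of class II to myeloid genes after MCAO was 3.92 with Csf1r and 0.14 with Itgam and Ptprc in place of 2.72, and after pontine infarction 1.0 and -1.14 in place of 0.27.

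Among log2 changes past no threshold in the fit reported, these changed sign. After MCAO, Ctss was -0.42 without MCAO replicate 1 or without both libraries, and up to 0.24 without other numbered libraries. Cd3e was 0.42 with all 6 shams and 0.48 without sham LN replicate 1 (-0.89 to 0.48 over single libraries). RT1-DOb was -0.25 with all 6 shams, -0.36 without sham LN replicate 3, and -0.29 without MCAO replicate 1 or both libraries (-0.36 to 1.13 over single libraries). After pontine infarction, Rfxank was -0.056 and -0.044 without sham PN replicate 1 or pontine infarction replicate 3 (-0.056 to 0.22 over single libraries), and Cd3e was -0.77 with all 6 shams. In the difference, Ciita was -0.40 with the replicate block and -0.24 without the unnumbered library. There RT1-DMa was -0.76 by limma voom, -0.11 with the block, -0.42 without both libraries, and -0.46 and -2.08 without MCAO replicate 1 or sham PN replicate 1 (-2.08 to 0.79 over single libraries). Between the shams, Ciita was 0.0096 with DESeq2 size factors, 0.064 with no filter, 0.022 by DESeq2, 0.081 with the block, 0.059 without both libraries and -0.56 to 0.18 without single libraries. RT1-DMa was -0.20, -0.55 and -0.39 without sham LN replicate 2, sham PN replicate 2 or sham PN replicate 3 (-0.55 to 2.32 over single libraries).

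Same-numbered libraries deviated together only weakly, with r of 0.104 and 0.0426 for MCAO, and 0.0483, 0.150 and 0.154 for pontine infarction. Each numbered stroke library, after MCAO as after pontine infarction, still correlated best with the sham of its own number. That is a hint from the data and not from the design. The labels state no pairing, so the numbers are not taken to pair the samples. With the replicate block 5 members were called after MCAO and 1 after pontine infarction.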
